A study of Mus musculus with 6 samples.

Results

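The pancreatic duct marker genes are 9 genes by which duct cells of the pancreas are usually recognized: the keratins Krt19, Krt7, Krt8 and Krt18, the transcription factor Sox9, the chloride channel Cftr, the secreted phosphoprotein Spp1, the surface mucin Muc1 and the tight junction protein Cldn4. They were taken as a list of names by a rule that uses no measured value, though earlier results of these data were known when it was drawn up, and a gene was measured only through a probe listed for it and for no other gene. By this rule 7 of the 9 genes were measured, of 20204 genes measured in all. The only probe of Krt7 is also listed for Krt86, so Krt7 was given no value, and Spp1 was not analysed here. Krt8 has 2 probes of its own and the other 6 genes have 1 each, and the brightest probe stands for the gene.

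The samples were islets of 15-month-old male C57BL/6 mice, 3 from wild-type and 3 from mTR-/-G4 animals, and each was hybridized to 1 Affymetrix mouse exon array. Each sample was taken as 1 mouse. mTR-/-G4 mice lack the telomerase RNA in every cell and were bred for successive generations without it, so that their telomeres are short. The values are log2 signals that the authors normalized over the 6 arrays together. The islets were isolated with collagenase, and a bulk sample cannot tell fewer cells of a type from less RNA per cell.

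Ducts are the branched epithelial tubes that carry the enzymes of acinar cells out of the pancreas, and their cells add bicarbonate and fluid. Islets lie among acinar cells and ducts, so an islet preparation can carry some of both. Duct cells share keratins, claudins and apical mucins with other simple epithelia, and Krt8 and Krt18 are also the keratins of acinar cells, whereas Krt19, Sox9 and Cftr are the more duct-restricted members of the list in the adult pancreas.

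The samples bore the marks of islets: Ins2, an insulin gene, had a log2 signal of 12.26 ± 0.052 (mean ± SD of 3) in wild-type samples, against 12.13 ± 0.11 (mean ± SD of 3) in mTR-/-G4 samples. Terc, the telomerase RNA gene, has 1 probe, which is listed for another gene too, so the labels could not be checked on it. The interquartile range of all log2 signals was 2.63 to 2.79 in wild-type samples and 2.05 to 2.56 in mTR-/-G4 samples, with the lowest value in mTR-/-G4 b, and the median difference between genotypes over all probes was 0.10 on the log2 scale. A gene was called higher or lower by the rule of the study, more than 1.5-fold with p under 0.05, where p comes from limma before adjustment. Adjusted p-values are Benjamini-Hochberg values over the 34502 probes of the array. By this rule 3.57% of the 20204 genes were called, 1.94% as higher and 1.64% as lower in mTR-/-G4 samples. At an adjusted p under 0.05 by limma 0 of the genes passed, while 14.2% had an unadjusted p under 0.05 and were higher and 7.96% were lower.

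The sequences just before the start sites of 4 members are shown because these genes carry the comparison: Muc1, the member past the threshold, Krt8 and Cldn4, which had an unadjusted p under 0.05, and Krt18, the filament partner of Krt8. Each run is 300 bases long, from 250 bases before the start site to 50 after it, read 5′ to 3′ on the gene's strand from RefSeq in build GRCm38.p6, which is not the build mm9 of the arrays' processing. Capitals mark matches, on either strand, to TATAAA (the TATA box), GGGCGG (the GC box bound by Sp1 family factors), CACCTG (an E-box) and AACAAT (a core that SOX factors bind).
Muc1: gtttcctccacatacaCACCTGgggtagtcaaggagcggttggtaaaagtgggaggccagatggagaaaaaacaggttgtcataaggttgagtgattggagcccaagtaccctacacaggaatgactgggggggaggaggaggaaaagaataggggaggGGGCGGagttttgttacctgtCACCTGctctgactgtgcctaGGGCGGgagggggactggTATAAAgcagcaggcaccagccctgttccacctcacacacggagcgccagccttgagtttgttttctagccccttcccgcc
Krt8: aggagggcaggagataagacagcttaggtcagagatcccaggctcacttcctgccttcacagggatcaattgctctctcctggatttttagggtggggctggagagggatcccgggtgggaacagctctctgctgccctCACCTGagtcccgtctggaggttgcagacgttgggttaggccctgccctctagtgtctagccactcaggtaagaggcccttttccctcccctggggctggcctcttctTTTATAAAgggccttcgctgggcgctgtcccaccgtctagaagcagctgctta
Krt18: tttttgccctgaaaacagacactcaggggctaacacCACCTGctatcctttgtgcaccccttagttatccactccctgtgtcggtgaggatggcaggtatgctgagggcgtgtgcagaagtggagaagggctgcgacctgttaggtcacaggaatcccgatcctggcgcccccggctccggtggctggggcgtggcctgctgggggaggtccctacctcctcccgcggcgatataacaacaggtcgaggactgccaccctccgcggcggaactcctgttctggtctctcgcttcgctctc
Cldn4: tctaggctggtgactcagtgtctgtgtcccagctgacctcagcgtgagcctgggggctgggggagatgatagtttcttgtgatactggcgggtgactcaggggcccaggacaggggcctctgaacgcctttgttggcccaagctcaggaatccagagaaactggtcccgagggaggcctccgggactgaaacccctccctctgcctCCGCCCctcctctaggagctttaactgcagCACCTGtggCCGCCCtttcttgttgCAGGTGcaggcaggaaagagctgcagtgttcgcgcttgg
The window of Muc1 is at chr3:89228806-89229105 on the plus strand, that of Krt8 at chr15:102004293-102004592 on the minus strand, that of Krt18 at chr15:102027966-102028265 on the plus strand, and that of Cldn4 at chr5:134946885-134947184 on the minus strand. Krt8 and Krt18 lie next to each other on chromosome 15. CACCTG was found in all 4 windows, with 2 matches in Muc1 and 2 in Cldn4, and in 20.2% of all 32851 promoter windows. TATAAA was found in Muc1 and Krt8, in the latter as a pair of overlapping matches on opposite strands, and in 13.6% of all windows. GGGCGG was found in Muc1 and Cldn4, with 2 matches each, and in 35.7% of all windows. AACAAT was found in 0 of the 4 windows and in 10.7% of all windows. These matches describe the letters of the windows only. The window of Cftr, another measured member, held 6 matches to GGGCGG and 0 to the other motifs. Windows were matched by symbol for 5 of the 7 measured members, all but Krt19 and Sox9.

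In islets with short telomeres, Muc1 was the only one of the 7 measured duct marker genes past the study's threshold, and it was higher. The difference was positive for all 7 genes, as for 63.4% of all genes measured, and ran from 0.13 for Sox9 to 0.98 for Muc1 on the log2 scale. The sign was not stable for the members with small differences: Sox9 was negative with sample weights (-0.095), without wild-type c (-0.11) and without mTR-/-G4 a (-0.017), and Krt19 with sample weights (-0.083) and after quantile normalization (-0.0036). With the mean signal of acinar markers as a covariate, 5 of the 7 were negative, all but Cldn4 and Cftr. As reported, the median difference was 0.33, against 0.10 over all genes measured. Both medians depended on the setting. Among probes brighter than the median they were 0.43, for the 4 members left, and -0.060 over all such probes. With sample weights they were 0.20 and, over all probes, 0.088. At an unadjusted p under 0.05 alone, 3 of the 7 were higher (Krt8, Muc1 and Cldn4), a share of 42.9% where 14.2% of all genes were. This count was 0 of 7 by the methods' t-test, with every array centred on its median and without wild-type c, and 1 with sample weights, without wild-type a or without mTR-/-G4 b. The duct-restricted members Krt19, Sox9 and Cftr were not among the 3. The adjusted p of the 7 genes by limma ran from 0.201 to 0.733.

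**Figure D1:**
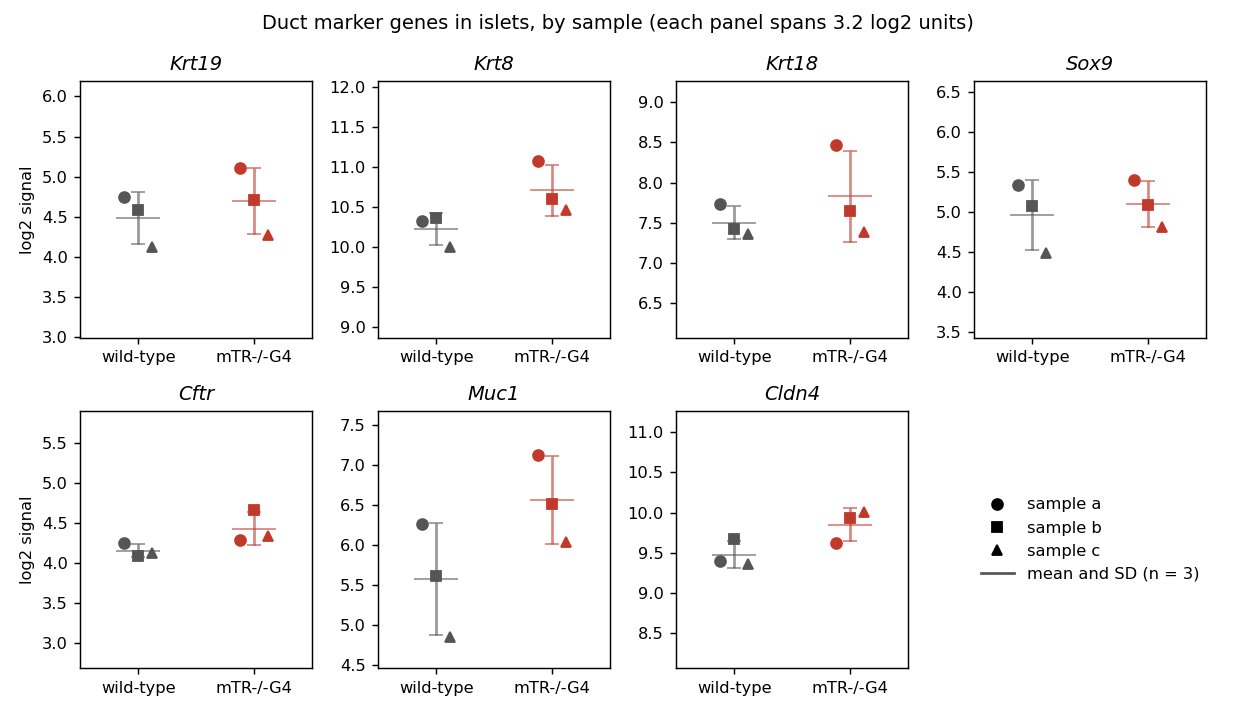
Log2 signal of the 7 measured duct marker genes in each islet sample, with wild-type in grey and mTR-/-G4 in red, symbols for samples a, b and c, and bars for the mean and SD of 3 samples. Every panel spans the same range, and only in the Krt8 and Cftr panels do all red points lie above all grey ones.

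Muc1 encodes a transmembrane mucin that coats the apical surface of ducts and other glandular epithelia. Its log2 signal was 6.26, 5.61 and 4.86 in wild-type samples a, b and c and 7.12, 6.52 and 6.04 in mTR-/-G4 samples a, b and c. The genotypes overlapped, since wild-type a lay above mTR-/-G4 c, and the range among wild-type samples (1.40) was larger than the difference between genotypes. The wild-type mean was 5.58 ± 0.70 (SD, n = 3) and the mTR-/-G4 mean 6.56 ± 0.55 (SD, n = 3), a fold change of 1.97. The log2 fold change was 0.98 (SE 0.39, 95% interval 0.052 to 1.91, unadjusted p = 0.0412 and adjusted p = 0.207 by limma). The call was lost without wild-type b (0.997), wild-type c (0.62), mTR-/-G4 a (0.70) or mTR-/-G4 b (1.002), and in the fit with sample weights (0.59), and it held without wild-type a (1.32) or mTR-/-G4 c (1.24). It was also lost by the methods' t-test, with every array centred on its median (0.88), among probes brighter than the median and at a 2-fold threshold. With the mean signal of acinar markers as a covariate the log2 fold change was -0.80 (SE 0.39).

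The keratins Krt8 and Krt18 pair to form the intermediate filaments of simple epithelia. The log2 signal of Krt8, a type II keratin, was 10.32, 10.37 and 10.00 in wild-type samples a, b and c and 11.07, 10.59 and 10.46 in mTR-/-G4 samples a, b and c. All mTR-/-G4 samples lay above all wild-type samples. The log2 fold change was 0.48 (SE 0.19, 95% interval 0.042 to 0.92, adjusted p = 0.201 by limma), a fold of 1.39 that stayed under 1.5. The other probe of Krt8 read 8.14, 8.12 and 7.95 in wild-type and 8.73, 8.32 and 8.37 in mTR-/-G4 samples, again without overlap. Its log2 fold change was 0.40 (SE 0.14, adjusted p = 0.183 by limma), and the difference between the probes was not tested. Krt8 passed the threshold without mTR-/-G4 c (0.60) and after quantile normalization of the 6 arrays (0.66).

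The log2 signal of Krt18, the type I partner of Krt8, was 7.73, 7.42 and 7.35 in wild-type samples a, b and c and 8.47, 7.64 and 7.38 in mTR-/-G4 samples a, b and c. Only mTR-/-G4 a lay above the wild-type samples, and the other mTR-/-G4 values fell within the wild-type range. The log2 fold change was 0.33 (SE 0.28, 95% interval -0.32 to 0.98, adjusted p = 0.446 by limma), and without mTR-/-G4 a it was 0.0099. Krt19, a type I keratin that in the adult pancreas marks ducts, read 4.74, 4.59 and 4.13 in wild-type and 5.10, 4.71 and 4.28 in mTR-/-G4 samples. The values of both genotypes were interleaved, with a log2 fold change of 0.21 (SE 0.24, 95% interval -0.36 to 0.78, adjusted p = 0.577 by limma). The largest of the 3 keratin differences was that of Krt8, and the contrasts among the 3 were not tested.

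Cldn4 encodes a claudin that seals the tight junctions of duct and other epithelia. Its log2 signal was 9.40, 9.68 and 9.35 in wild-type samples a, b and c and 9.62, 9.93 and 10.00 in mTR-/-G4 samples a, b and c. Wild-type b lay above mTR-/-G4 a, and the other samples were separated by genotype. This gave a log2 fold change of 0.37 (SE 0.15, 95% interval 0.029 to 0.72, adjusted p = 0.203 by limma), a fold of 1.29. Unlike the keratins and Muc1, Cldn4 was lowest in sample a among mTR-/-G4 samples.

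Sox9, a transcription factor that duct cells keep from the progenitors of the embryonic pancreas, read 5.34, 5.07 and 4.48 in wild-type samples a, b and c and 5.40, 5.08 and 4.81 in mTR-/-G4 samples a, b and c. The genotypes overlapped almost fully, with a log2 fold change of 0.13 (SE 0.24, 95% interval -0.44 to 0.71, adjusted p = 0.733 by limma). The upper bound is a fold of 1.63, so an increase past 1.5-fold was not excluded at this number of arrays. Cftr, the apical channel through which duct cells release chloride and bicarbonate, read 4.25, 4.09 and 4.12 in wild-type and 4.29, 4.66 and 4.33 in mTR-/-G4 samples. The genotypes did not overlap, though the gap between them was smaller than the range within mTR-/-G4 samples, and mTR-/-G4 b was the highest. The log2 fold change was 0.28 (SE 0.13, 95% interval -0.031 to 0.58, adjusted p = 0.240 by limma), and after quantile normalization it was 0.041. Krt19, Sox9 and Cftr, 3 of the 7 members, were dimmer than the median of all probes. By contrast, only 2.62% of probes were brighter than that of Krt8 and 4.28% brighter than that of Cldn4. Which cells of the preparation gave these signals was not tested.

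**Figure D2:**
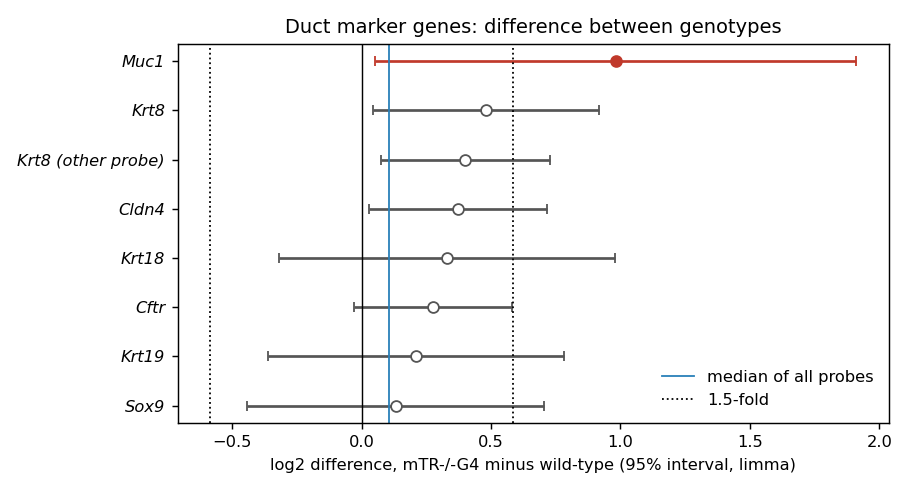
Difference in log2 signal between mTR-/-G4 and wild-type islets for each own probe of the duct marker genes, with 95% intervals from limma, 0 as a solid line, the median of all probes in blue and the 1.5-fold threshold dotted. Muc1 (0.98, filled) lies past the threshold, and the intervals of Krt19, Krt18, Sox9 and Cftr hold 0.

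All samples of mTR-/-G4 lay above all wild-type samples for 2 of the 7 members, Krt8 and Cftr. That is 28.6%, where 25.0% of all genes measured had this arrangement and 12.2% the opposite one, so this count is near the background. Within the genotypes the members varied in a shared way. Sample a was the highest and sample c the lowest of both genotypes for 4 of the 7 members, Krt19, Krt18, Sox9 and Muc1, an arrangement seen in 3.57% of all genes measured. Wild-type c was the lowest of the 6 samples for 6 of the 7 members, all but Cftr, and mTR-/-G4 a was the highest for 5, all but Cftr and Cldn4. The mean log2 signal of the 7 members was 6.86, 6.69 and 6.33 in wild-type samples a, b and c and 7.30, 7.02 and 6.76 in mTR-/-G4 samples a, b and c. Wild-type a lay above mTR-/-G4 c on this mean.

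The 3 genes outside the list whose signal followed that of Muc1 most closely over the 6 samples, by Pearson's r among all genes measured, were Gm5409 (r = 0.996), Aldh1a7 (r = 0.991) and Igf1 (r = 0.991). This ranking is a description over 6 samples and 20204 genes that share the same arrays. Gm5409 was among the dimmest, with 96.0% of probes brighter, against 59.3% for Aldh1a7 and 49.9% for Igf1. Like Muc1, each of the 3 was highest in sample a and lowest in sample c of both genotypes, an order that the choice by r favours. Their log2 fold changes of 0.21 (SE 0.12), 0.50 (SE 0.27) and 0.50 (SE 0.23) did not pass the threshold.

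**Figure D3:**
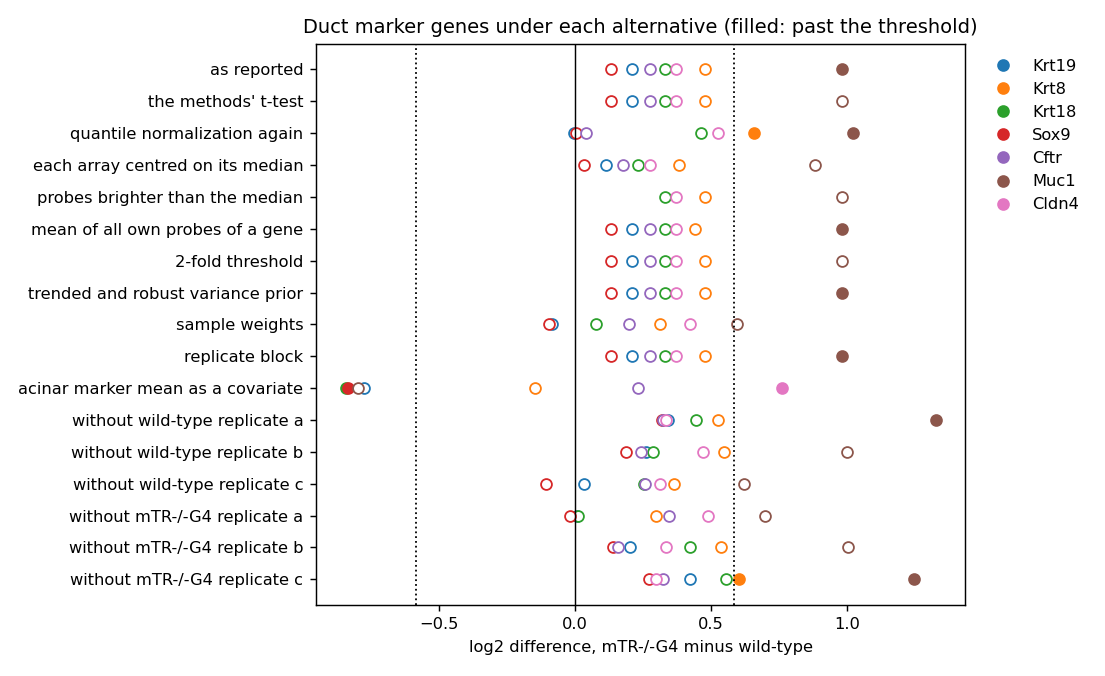
Log2 difference between genotypes of the 7 duct marker genes as reported and under each alternative, filled where the gene passed the threshold of that setting. Muc1 lies between 0.59 and 1.32 in all settings but the acinar covariate, where it falls to -0.80, while Cldn4 and Cftr stay positive throughout.

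Other genes of ducts and simple epithelia were described by a wider list in 6 roles, of which 52 of 59 genes were measured. By the study's rule 1 was higher and 1 was lower, and 50 did not pass, against 1.94% higher and 1.64% lower of all genes. Their median difference was 0.13 on the log2 scale, close to the 0.10 over all genes measured. At an unadjusted p under 0.05 alone, 21.2% were higher and 11.5% lower, where 14.2% and 7.96% of all genes were.

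Of 9 genes in the secreted role, which also took in the membrane proteins Muc20 and Vtcn1, Tff2 rose and 8 did not pass. At an unadjusted p under 0.05 alone, 5 of the 9 (55.6%) were higher, Tff2, Tff3, Wfdc2, Muc20 and Vtcn1, where 14.2% of all genes were. In the same 5 genes the genotypes did not overlap on the brightest probe, where 25.0% of all genes were higher without overlap. Tff3, Wfdc2, Muc20 and Vtcn1 were each highest in mTR-/-G4 b, the array with the lowest interquartile range of signals (2.05). What this array added to both counts was not tested. The median difference of the 9 was 0.45. Other probes of Muc20 differed by 0.13 (SE 0.26) and -0.28 (SE 0.14), the latter lower in mTR-/-G4 samples without overlap. The other probe of Vtcn1 differed by 0.30 (SE 0.15). Wfdc2 and Vtcn1 were dimmer than the median of all probes. Tff2, a trefoil peptide of mucous secretions, read 7.46, 5.94 and 5.45 in wild-type samples a, b and c and 9.40, 8.68 and 7.92 in mTR-/-G4 samples a, b and c. The genotypes did not overlap, and in both of them sample a was highest and sample c lowest, as for Muc1. The log2 fold change was 2.38 (SE 0.56, adjusted p = 0.124 by limma), a fold of 5.22, and it stayed past the threshold whichever sample was left out. With the acinar covariate it was -0.31. Of 8 measured transcription factors, Glis3 fell and 7 did not pass. Glis3, a zinc finger factor that works in developing ducts and also in beta cells, read 7.87, 8.09 and 8.54 in wild-type and 7.48, 7.17 and 7.29 in mTR-/-G4 samples. The genotypes did not overlap, and the log2 fold change was -0.85 (SE 0.18, adjusted p = 0.114 by limma). Its call was lost with the acinar covariate (-0.61) and held whichever sample was left out.

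In the other 4 roles 0 genes passed by their brightest probe. Of 12 genes of fluid and bicarbonate transport, 1 (8.33%) was higher and 1 (8.33%) lower at an unadjusted p under 0.05, where 14.2% and 7.96% of all genes were. The lower one was Slc4a4 (-0.33, SE 0.13). The largest difference was 0.43 (SE 0.15) for Car2, a carbonic anhydrase that supplies bicarbonate. Of 11 measured surface and junction genes, 2 (18.2%) were higher and 3 (27.3%) lower at that p. The higher were Cldn1, a claudin, at 0.52 (SE 0.14) and Cldn7 at 0.36 (SE 0.11), and the other probe of Cldn1 differed by 0.17 (SE 0.12). The lower were Cd44 (-0.48, SE 0.13), Prom1 (-0.48, SE 0.13) and Tjp1 (-0.35, SE 0.12), each without overlap between genotypes. That is 27.3% of the 11 lower without overlap, where 12.2% of all genes measured were. Of 8 keratins and keratin partners, 0 reached that p, and Krt20, a type I keratin, had the largest difference at 0.20 (SE 0.094). Of 4 measured genes of the primary cilium and polycystins, Dcdc2a, a doublecortin domain protein, was higher at an unadjusted p under 0.05, and Pkd1, the polycystin 1 gene, was lower (-0.43, SE 0.093) and is named after its value was seen. Dcdc2a differed by 0.55 (SE 0.18) on the brightest of its 4 probes, 0.69 and 0.88 on 2 others, which passed the threshold as higher, and -0.17 on the dimmest.

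**Figure D4:**
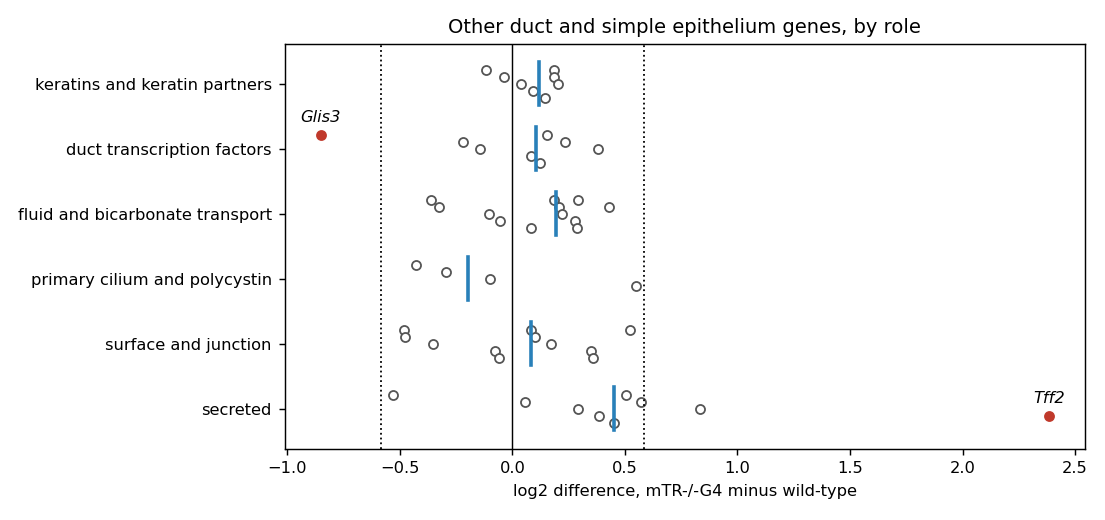
Log2 difference between mTR-/-G4 and wild-type islets of 52 further duct and simple epithelium genes by role, with the median of each role as a blue bar and the 1.5-fold threshold dotted. Only Glis3 (-0.85) and Tff2 (2.38), in red, passed the threshold.

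Markers of the cells that surround islets moved as well. Of 21 measured acinar markers, 18 (85.7%) were higher and 1 (4.76%) lower at the study's threshold, where 1.94% and 1.64% of all genes were. The mean log2 signal of the acinar markers was 7.40 to 8.27 in wild-type and 8.76 to 9.73 in mTR-/-G4 samples, without overlap. On the list's mean, sample a was the highest and sample c the lowest of both genotypes. Krt19, Krt18, Sox9, Muc1 and Tff2 had the same arrangement. It was not limited to acinar and duct genes. Gene by gene, 13 of 21 acinar, 4 of 8 endothelial, 3 of 9 mesenchymal and 2 of 9 macrophage markers had it. So did 1 of 6 alpha and delta cell, 0 of 9 beta cell and 0 of 4 mesothelial markers. Among the acinar markers, Gp2, a zymogen granule protein, rose by 3.54 (SE 0.54) and Cel, a lipase, by 1.67 (SE 0.31), while Bhlha15, a transcription factor of secretory cells, fell by 0.60 (SE 0.18). These signals have no true zero, so no marker can be called absent. With the acinar mean as a covariate, 2 of the 7 duct marker genes passed as lower, Krt18 (-0.84) and Sox9 (-0.83), and 1 as higher, Cldn4 (0.76). The share of all genes called in this fit was not counted, so these counts have no background beside them. All 8 endothelial markers passed as lower in the same fit. Krt19 was at -0.78 (SE 0.33), Krt8 at -0.15 (SE 0.32) and Cftr at 0.23 (SE 0.30). The acinar mean separates the genotypes, so such a fit is less precise: the median SE of the 7 genes moved from 0.24 to 0.33. The share of acinar or of duct tissue in each preparation was not measured, and its part in these differences was not tested.

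Of the other lists, 0 of 9 mesenchymal, 9 macrophage and 4 mesothelial markers passed the study's threshold. The counts with an unadjusted p under 0.05 were 0, 1 and 1, all higher. By the mean of each list, wild-type c was the lowest of the 6 samples for the mesenchymal markers (5.42, against 5.67 to 6.22 in the others) and for the macrophage markers (5.60, against 5.79 to 6.20), as it was for most duct marker genes. Of 8 endothelial markers, 2 (25%) passed as lower, where 1.64% of all genes did: Kdr (-0.66, SE 0.19) and Tek (-0.70, SE 0.25), both receptors of vascular growth factors. At an unadjusted p under 0.05, 3 (37.5%) were lower, where 7.96% of all genes were, with Emcn at -0.47 (SE 0.12). All 8 differences were negative, where 63.4% of all genes measured were positive. Of 9 measured beta cell markers, 0 passed and 2 (22.2%) were lower at that p, and all 9 differences were negative. All 9 were brighter than the median of all probes, and over all such probes the median difference was -0.060. The mean log2 signal of the beta cell markers was 11.263 to 11.509 in wild-type and 11.174 to 11.261 in mTR-/-G4 samples. Of 6 alpha and delta cell markers, 0 passed and 0 had such a p.

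**Figure D5:**
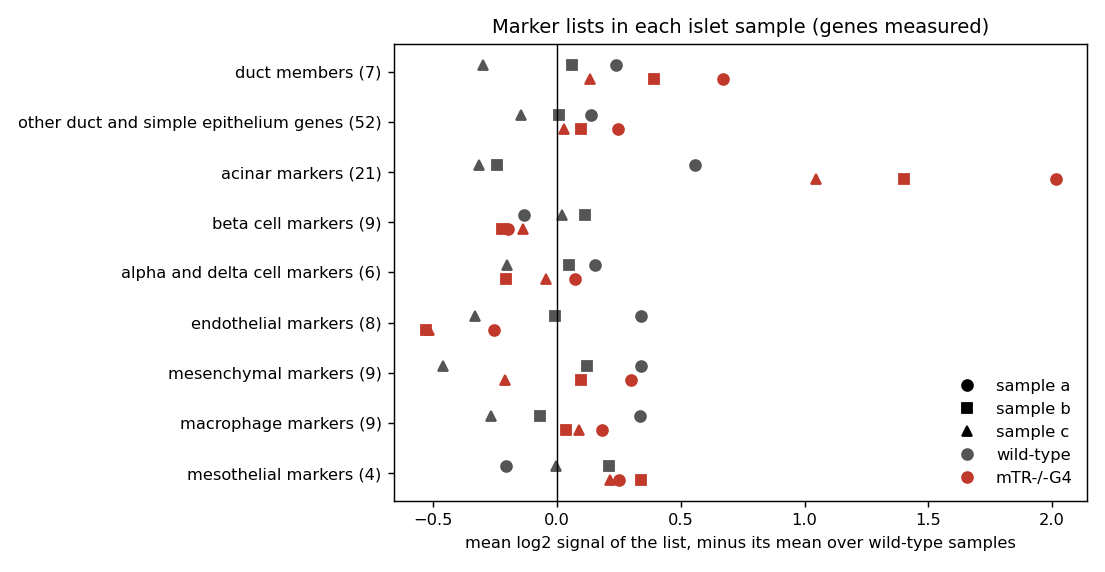
Mean log2 signal of each marker list in each islet sample, minus its mean over the 3 wild-type samples, with the number of genes measured in parentheses. The acinar list separates the genotypes by the widest margin, while the 7 duct marker genes overlap between wild-type a and mTR-/-G4 c.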

How the data were processed

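Islet RNA of 3 wild-type and 3 mTR-/-G4 mice was hybridized to Affymetrix mouse exon arrays. The authors ran Robust Multichip Analysis (background correction, quantile normalization and summary of the probes of a transcript) in Partek and deposited 1 log2 signal per transcript cluster, here a probe, for 34502 of them. The build, from the submitters' processing notes, is mm9. Of the probes, 25362 are listed for 1 gene symbol, 2238 for several and 6902 for none, and only the first kind was given a gene. Precision is limited by the 3 arrays per genotype.

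Genotypes were compared over all probes with limma 3.58.1 (lmFit and eBayes, unpaired, prior degrees of freedom 3.14) in R 4.3.3, keeping dim probes. Calls follow the study's rule of more than 1.5-fold with p under 0.05. The methods do not name the test of the arrays, and Student's t-test, named in their general statement, was run as an alternative. The comparison was tested on simulated data. Genes named from the wider list are those past the threshold in each role, or the gene with the largest difference where none passed. Pkd1, Slc4a4, Cldn7, Cd44, Prom1, Tjp1, Emcn and the genes of the secreted role other than Tff2 were named after their values were seen. Symbols were matched exactly, then by gene ID or older symbol. The members and lists were chosen with earlier results of these data known, so no p was adjusted over a list and no list was tested as a set. The alternatives were 10 other settings and each of the 6 samples left out in turn.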

Additional observations from a re-analysis of the deposited data

How the results depend on the processing

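The number of duct marker genes past the threshold rested on few arrays. It was 1 as reported, 0 higher by the methods' t-test, with every array centred on its median, among probes brighter than the median (where 4 of the 7 genes were left), at a 2-fold threshold and with sample weights, and 2 (Krt8 and Muc1) after quantile normalization of the 6 arrays. Leaving out 1 sample gave 0 to 2 higher and 0 lower. With the mean acinar signal as a covariate 2 were lower and 1 higher, the median log2 fold change was -0.78, and the sign turned for 5 of the 7 genes, Krt18 (-0.84), Sox9 (-0.83), Muc1 (-0.80), Krt19 (-0.78) and Krt8 (-0.15), and for Tff2 (-0.31). The cause was not tested. Of the wider duct list, 2 genes were higher after quantile normalization and with sample weights (Dcdc2a with Tff2), 2 were lower with arrays centred on their medians (Ambp with Glis3), and 0 were lower at 2-fold. With the acinar covariate 8 were lower, Dcdc2a was higher and the median was -0.096, and the share of all genes called in that fit was not counted. Leaving out 1 sample gave 1 to 3 higher and 1 to 2 lower. Centring moved the median difference of all probes from 0.10 to 0.0066. Sample letters are shared by the genotypes, and no label says what they mark, so samples were compared unpaired. Over all probes, deviations of same-letter samples correlated at 0.043 for a, -0.16 for b and 0.11 for c. Those of different-letter samples ran from -0.17 to 0.14. With 3 samples per genotype these correlations cannot decide whether letters mark pairs. An order by letter was shared by 4 of the 7 members and 13 of 21 acinar markers, against 3.57% of all genes, which does not decide it either. With the letter as a replicate block the count of duct marker genes stayed at 1, Muc1 (0.98, SE 0.14), and 2 of the wider list were higher (Lcn2 with Tff2).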
